A study of Mus musculus with 16 samples.

Results

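The RNA levels of 10 genes that set whether a cell lives or dies were analysed in BMDMs, mouse macrophages derived in culture from bone marrow cells. They comprised the PIM kinase genes Pim1, Pim2 and Pim3, the BCL2 family survival genes Mcl1, Bcl2, Bcl2l1 and Bcl2a1b, and the pro-death genes Bcl2l11, Pmaip1 and Bbc3. The genes were chosen by name, with earlier results of these data known, and found by matching the Ensembl identifiers of the count table to symbols. All 10 of them, of 55487 genes counted, were among the 12372 genes tested, that is, genes above 1 CPM (counts relative to the total of a sample) in at least 2 samples. The 16 samples were BMDMs of wild-type Balb/c mice of 8 weeks in 6 groups. They comprised 2 samples in DMEM, the plain medium, 3 in DMEM with ruxolitinib (DMEM + Rux), 3 in conditioned media of 4T1 mouse mammary tumor cells (CM), 3 in CM with ruxolitinib at 0.5 μM (CM + Rux), 3 in CM with both ruxolitinib at 0.5 μM and IKK-16 at 0.8 μM (CM + Rux + IKK-16) and 2 in CM with ruxolitinib at 0.5 μM labelled 2 h (CM + Rux 2 h). Ruxolitinib blocks JAK1 and JAK2, and IKK-16 blocks the IKK complex upstream of NF-κB. Per the study's methods treatment for RNA lasted 4 h, which is also the time in the labels of the CM + Rux samples. The labels of the other groups, besides that of 2 h, give no time. What was done for 2 h and the dose of ruxolitinib in DMEM are not described in the sources used here. Cells for CM with ruxolitinib also met the drug during serum starvation ahead of the CM. Conditioned media carry all soluble factors of the tumor cells, and no group received IKK-16 without ruxolitinib.

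The BCL2 family acts at the outer membrane of the mitochondrion. Its survival members, MCL1, BCL2, BCL-XL (from Bcl2l1) and A1 (from Bcl2a1b and its copies), hold the pore-forming proteins BAX and BAK in check. The BH3-only proteins BIM (from Bcl2l11), NOXA (from Pmaip1) and PUMA (from Bbc3) bind the survival members, free BAX and BAK and so start apoptosis. PIM kinases are serine/threonine kinases with no known regulatory subunit, so that their activity largely follows their RNA and protein levels. They are induced by cytokines through JAK and STAT and phosphorylate, among others, the BH3-only protein BAD. In myeloid cells A1 is a known target of NF-κB, and neutrophils depend on MCL1.

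Bcl2a1b is 1 of several near-identical copies in the mouse genome, so the start of the coding sequence is shown for the 3 copies with counts that passed the filter on low values. Of the 516 coding bases, 97.9% were identical between Bcl2a1a and Bcl2a1b, 98.6% between Bcl2a1a and Bcl2a1d and 98.8% between Bcl2a1b and Bcl2a1d (GENCODE M21 transcripts). Bases 1 to 90 hold 6 of the 12 positions at which the copies differ, which are marked by capitals.
Bcl2a1a: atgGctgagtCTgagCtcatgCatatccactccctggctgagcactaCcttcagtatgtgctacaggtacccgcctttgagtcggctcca
Bcl2a1b: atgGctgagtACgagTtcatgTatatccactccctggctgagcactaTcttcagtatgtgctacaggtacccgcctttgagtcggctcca
Bcl2a1d: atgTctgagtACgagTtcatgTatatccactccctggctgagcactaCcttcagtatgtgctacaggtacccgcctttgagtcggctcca
Per the header of the count table, featureCounts ran with a minimum mapping quality of 10 and without its options to count fragments of several alignments or several genes. Of the 30-base windows of the Bcl2a1b transcript 74.4%, and of its 150-base windows 14.2%, also occur in another copy. Leaving out fragments of several alignments lowers its counts, while fragments of another copy placed on it would raise them. That placing was not tested. Its annotated exons also overlap those of Gm29094 on the same strand over 401 of 817 bases, and fragments that fall in both genes are not counted without that option.

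Promoters were searched for the STAT motif (TTC and GAA with any 3 bases between), the FOXO motif TGTTTAC and the κB motif of NF-κB on both strands, over 250 bases ahead of to 50 bases after each RefSeq start (GRCm38.p6). The κB motif was GGG, A or G, any 2 bases, C or T at 2 positions, and CC. Of 32851 such promoters, 8.3% held the STAT motif, 3.65% the FOXO motif and 8.46% the κB motif. These shares are per window, while Bcl2l1 and Bbc3 had 3 windows each, Pim1 and Bcl2l11 2 each and the other members searched 1 each. No window of the 9 members searched held the STAT motif. Single windows of Pim3 and Bcl2l1 and 1 of Bbc3 held the κB motif, and single windows of Bcl2l11, Pim1 and Bbc3 held the FOXO motif. Upstream sequences are shown for Bcl2l11, the member with the largest difference between the 2 h samples and CM, and for Pim3, with the FOXO match of the former and the κB match of the latter in capitals.
Bcl2l11, chr2:128125788-128126037, plus strand: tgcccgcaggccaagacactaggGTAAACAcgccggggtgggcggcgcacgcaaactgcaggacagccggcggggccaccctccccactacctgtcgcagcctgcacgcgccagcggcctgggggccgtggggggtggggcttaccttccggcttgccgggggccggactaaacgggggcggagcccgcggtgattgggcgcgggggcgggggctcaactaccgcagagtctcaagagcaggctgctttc
Pim3, chr15:88861944-88862185, plus strand: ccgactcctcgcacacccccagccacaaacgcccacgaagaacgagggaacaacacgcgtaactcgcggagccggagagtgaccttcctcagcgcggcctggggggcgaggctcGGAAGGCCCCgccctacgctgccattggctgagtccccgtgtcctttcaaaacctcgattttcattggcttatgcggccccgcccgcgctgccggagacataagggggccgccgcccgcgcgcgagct
Such matches describe letters in these windows and do not show binding.

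Depth was 18449388 to 46215853 counts a sample. After scaling by relative log expression (RLE), edgeR's quasi-likelihood test was run in 1 model of all samples. Calls required a Benjamini-Hochberg adjusted p under 0.05 over all genes tested together with a log2 fold change beyond 0.5. The summed level of 6 macrophage markers was 5304 to 7111 CPM in every sample. It was lower in CM (5304 to 5974 CPM) than in DMEM (6656 to 7111 CPM), with Csf1r called lower and Itgam higher. Compared with CM, 1 of the 6 was called lower in CM + Rux, 2 in CM + Rux 2 h and 2 in CM + Rux + IKK-16. In the 2 h samples 1 was called higher than in CM + Rux. Under ruxolitinib, CM against DMEM gave 1 higher and 1 lower call. Marker lists of neutrophils, T and NK cells, B cells and epithelial cells summed to at most 3.24 CPM. At these levels the neutrophil marker S100a8 was called higher in CM than in DMEM (means 1.90 and 0.247 CPM) and the B cell marker Cd79b lower (0.142 and 1.14 CPM). The part of these differences in the results was not tested. The 4 dendritic cell markers summed to 8.53 and 12.7 CPM in the CM + Rux 2 h samples and to at most 2.28 CPM elsewhere. Nearly all of this was Zbtb46, while Flt3 was at 0 in both 2 h samples. Its part in the 2 h results was not tested. In bulk RNA, fewer cells of a type and less RNA per cell cannot be told apart. Of 4 JAK-STAT response genes, Cish and Socs2 were called lower in CM + Rux than in CM, addition of IKK-16 to CM + Rux gave lower calls for Cish and Socs1, and all 4 were called lower in CM + Rux + IKK-16 than in CM. Of 4 NF-κB response genes, Nfkbia, Tnfaip3 and Nfkb2 were called lower in CM + Rux + IKK-16 than in CM + Rux (3.66% of all genes). In CM + Rux against CM 0 of these 4 were called (3.33% of all genes). The 2 h samples had 2 of them called higher than in CM (14.6% of all genes).

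Tumor CM raised Pim1, Pim3 and Bcl2a1b and lowered Bbc3 and Bcl2. Pim2 and Bcl2l1 were also called higher, but not with scaling by total counts alone. In CM against DMEM 5 of the 10 genes were called higher and 2 lower, where 45.0% of all genes tested were called (20.9% higher and 24.1% lower). With scaling by total counts alone 3 were called higher and 3 lower. With ruxolitinib in both arms, CM + Rux against DMEM + Rux, 4 were called higher and 2 lower, against a background of 47.3% (22.3% higher and 25.0% lower). In CM + Rux against CM, Pim2, Bcl2l11 and Pmaip1 were called higher and none lower, while 3.33% of all genes were called, 1.20% higher and 2.13% lower. Under TMM scaling 3 were called higher and 1 lower, and with total counts alone 2 higher and 1 lower. With the replicate number as a block Bcl2l1 was called lower as well, and 745 of all genes were called in place of 412. In CM + Rux + IKK-16 against CM + Rux, Bcl2 was called higher and Bcl2a1b and Bcl2l11 lower, with 7.74% of all genes called (4.07% higher and 3.66% lower). With total counts alone 2 were called higher and none lower there. With the block Bcl2l1 was called higher as well there, and 1342 of all genes were called in place of 957. In CM + Rux + IKK-16 against CM, 2 were called higher and 1 lower, where 12.7% of all genes were called (6.60% higher and 6.13% lower). In DMEM + Rux against DMEM 0 of the 10 were called by edgeR, 0 by DESeq2 and 0 at an unadjusted p under 0.05, with 0.970% of all genes called. The 2 h samples had 2 genes higher and 1 lower than CM, where 28.0% of all genes were called (14.6% higher and 13.3% lower). Against CM + Rux they had 2 higher and 2 lower, where 23.3% were called (12.6% higher and 10.7% lower). Comparisons that share a group are not independent of each other.

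**Figure D1:**
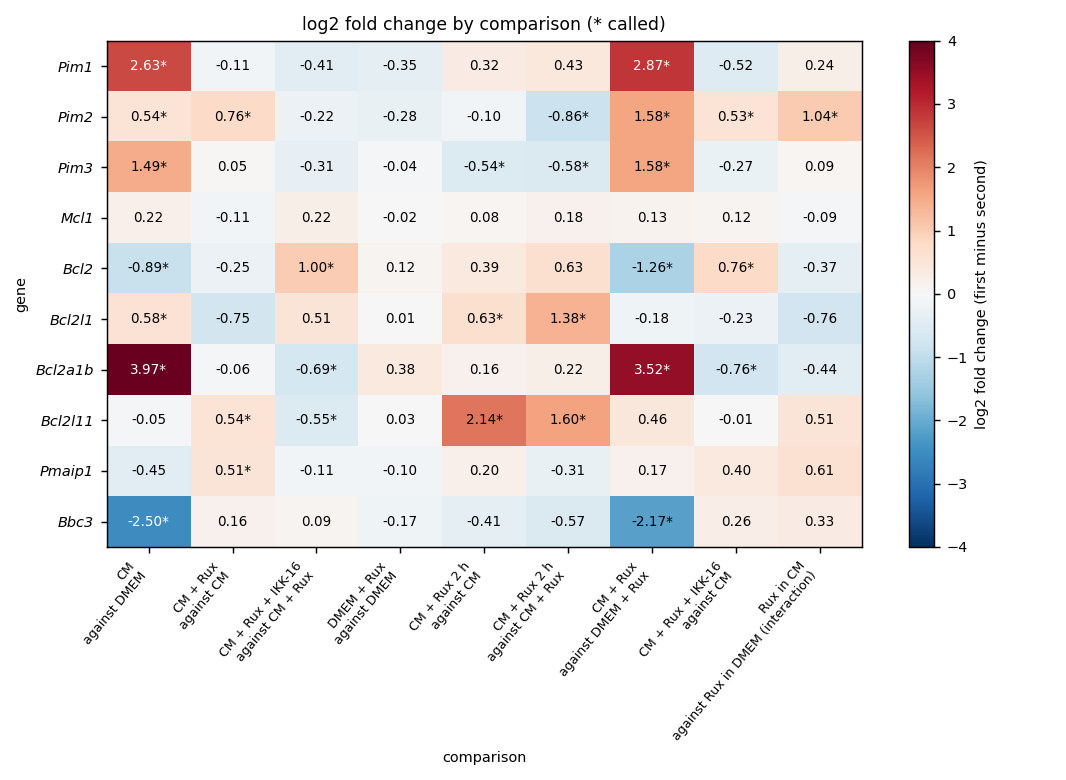
The log2 fold change of each of the 10 genes (vertical axis) in the 9 comparisons (horizontal axis), as the first group minus the second, with colour from blue (lower) to red (higher) and an asterisk where the gene was called. The values in CM against DMEM run from -2.50 for Bbc3 to 3.97 for Bcl2a1b, while those in DMEM + Rux against DMEM run from -0.35 to 0.38 with no call.

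Levels of different genes were compared per kilobase, as RLE-scaled CPM divided by the length of the merged exons (RPKM). Mcl1 was the highest of the 10 genes in every group, with means of 222 to 284 RPKM, and its range did not overlap that of the next gene in any group. Bcl2 was the lowest in every group, at 0.584 to 1.39 RPKM. In DMEM the next genes below Mcl1 were Bcl2l1 and Pim1, at 23.7 ± 7.14 and 21.5 ± 8.30 RPKM (SD, n = 2), with overlapping ranges. In CM Pim1 was second at 133 ± 12.2 RPKM (SD, n = 3), followed by Bcl2a1b at 57.3 ± 5.01 and Bcl2l1 at 35.4 ± 4.55, and no neighbours in the order overlapped. In the CM + Rux 2 h samples Bcl2a1b, Bcl2l11 and Bcl2l1 lay together at 64.2, 56.0 and 54.9 RPKM, and neighbours overlapped. Mcl1 made up 86.7 to 90.4% of the summed RPKM of the 4 survival genes in the samples without CM and 69.2 to 84.2% in those with CM. The share of Bcl2a1b in this sum was 1.12 to 2.79% without CM and 8.49 to 19.3% with CM. By these counts Bcl2a1b was a minor copy of the A1 gene, though fragments of several alignments or shared with Gm29094 are missing from them. With Bcl2a1a and Bcl2a1d added the order was different. The 3 copies summed to 33.7 ± 13.2 RPKM in DMEM (SD, n = 2) and 525 ± 29.2 in CM (SD, n = 3), the latter above Mcl1 at 261. In the sum with all 3 copies, Mcl1 held 78.3 to 84.0% without CM, 28.0 to 34.9% in CM, CM + Rux and CM + Rux 2 h and 41.6 to 49.8% in CM + Rux + IKK-16. The copies together held 7.93 to 14.9%, 60.2 to 68.7% and 45.9 to 53.4%.

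**Figure D2:**
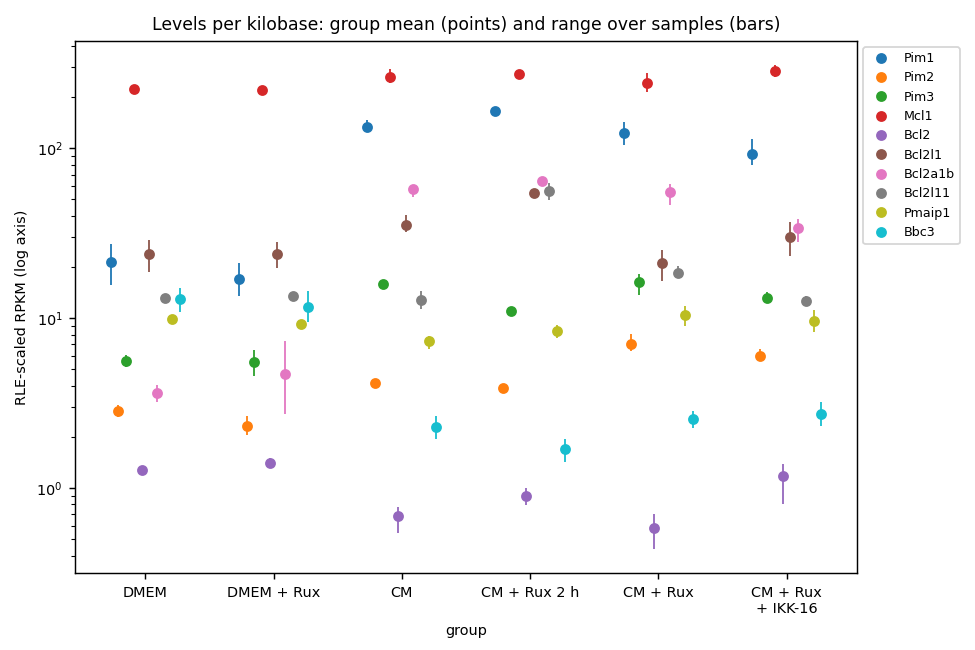
RLE-scaled RPKM (vertical log axis) of the 10 genes in the 6 groups (horizontal axis), with points for the group mean and bars from the lowest to the highest sample. Mcl1 lies above the other genes and Bcl2 below them in each group, and Pim1 moves from 16.9 to 21.5 RPKM without CM to 92.8 to 166 RPKM with CM.

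Pim1 (ENSMUSG00000024014, chr17:29490753-29496112, plus strand), first known as a site of provirus integration in mouse lymphomas, was the most abundant PIM gene. Its levels were 91.9 and 52.5 CPM in DMEM and 426, 495 and 422 CPM in CM. In DMEM + Rux they were 54.3, 45.5 and 70.6 CPM, and in CM + Rux 412, 481 and 353 CPM. Samples with and without CM did not overlap. Pim1 rose 6.19-fold in CM against DMEM, with a log2 fold change of 2.63 (SE 0.25, adjusted p = 1.05e-06), and by a log2 fold change of 2.87 (SE 0.22) in CM + Rux against DMEM + Rux. CM + Rux differed from CM by -0.11 (95% interval -0.54 to 0.33, adjusted p = 0.91), with overlapping samples. With IKK-16 the levels were 287, 383 and 267 CPM, all below the 3 CM samples. The log2 difference of CM + Rux + IKK-16 from CM was -0.52 (95% interval -0.96 to -0.09) and missed the threshold with an adjusted p of 0.080. It passed with no filter on low counts (0.0079), in DESeq2 (0.046), in a model of only the groups compared (0.042) and without replicate 2 of CM + Rux + IKK-16 (-0.70, 0.035). The exons of Pim1 overlap Gm26885 on the opposite strand over 488 bases, which stranded counting keeps apart.

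Pim2 (ENSMUSG00000031155, chrX:7878262-7883432, plus strand) encodes a kinase with substrates similar to those of PIM1, and responded differently to ruxolitinib in CM and in DMEM. It was at 8.63 and 7.29 CPM in DMEM, 5.77, 7.41 and 6.35 CPM in DMEM + Rux and 12.02, 11.8 and 10.9 CPM in CM. In CM + Rux it reached 22.6, 17.8 and 18.3 CPM. All 3 CM + Rux samples lay above all 3 CM samples, at 1.69-fold the level, with a log2 fold change of 0.76 (SE 0.12, adjusted p = 0.0019). In DMEM ruxolitinib shifted Pim2 by -0.28 (95% interval -0.58 to 0.01, adjusted p = 1). The difference between both ruxolitinib effects was 1.04 (95% interval 0.65 to 1.43, adjusted p = 0.026), the only one of the 10 genes called in this test without a replicate block (4 with it, Bcl2l1, Bcl2l11 and Pmaip1 besides Pim2), where 0.412% of all genes were called (0.234% higher and 0.178% lower). This call was lost in a model of only these 4 groups (1.04, 0.064) and without CM replicate 1, 2 or 3, CM + Rux replicate 1, DMEM replicate 1 or DMEM + Rux replicate 1 or 3, with values of 0.91 to 1.07 and adjusted p of 0.052 to 0.17.

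Pim2 was also called higher in CM than in DMEM, by 0.54 (SE 0.14, adjusted p = 0.0038). That difference was 0.22 (adjusted p = 0.20) with scaling by total counts alone and 0.42 (0.055) without DMEM replicate 2. Under ruxolitinib the effect of CM was 1.58 (SE 0.12, adjusted p = 7.6e-08). With IKK-16 Pim2 was at 16.2, 15.8 and 18.3 CPM, which overlapped CM + Rux. Its log2 difference from CM + Rux was -0.22 (95% interval -0.47 to 0.02), and that from CM was 0.53 (SE 0.12, adjusted p = 0.0056). The latter fell below the fold threshold without CM replicate 3 (0.49) or CM + Rux + IKK-16 replicate 3 (0.47). In the 2 h samples Pim2 was at 11.02 and 10.6 CPM, close to the CM samples and below those of CM + Rux (log2 fold change -0.86, SE 0.14, adjusted p = 2.82e-04).

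Pim3 (ENSMUSG00000035828, chr15:88862186-88865726, plus strand), the third kinase of the family, was at 14.8 and 12.5 CPM in DMEM and 36.1, 40.4 and 38.9 CPM in CM. It rose 2.82-fold in CM (log2 fold change 1.49, SE 0.15, adjusted p = 1.76e-06), with no overlap, and by 1.58 (SE 0.13) when both arms held ruxolitinib. Ruxolitinib in CM gave 41.9, 43.9 and 33.2 CPM, on both sides of the CM samples, and a log2 difference of 0.05 (95% interval -0.22 to 0.32). The 2 h samples, at 25.5 and 27.6 CPM, lay below all CM and CM + Rux samples. Pim3 was called lower there than in CM (-0.54, SE 0.15, adjusted p = 0.0089) and than in CM + Rux (-0.58, SE 0.15, adjusted p = 0.0061). Without CM + Rux 2 h replicate 2 both calls were lost (-0.48, 0.073, and -0.53, 0.058), and without CM replicate 2 the first fell just short of the fold threshold (-0.50, 0.025). With IKK-16 Pim3 was at 31.6, 34.7 and 29.7 CPM, and its difference from CM + Rux was -0.31 (95% interval -0.59 to -0.04, adjusted p = 0.12). Pim1 made up 65.3 to 74.9% of the summed RPKM of the 3 PIM genes in samples without CM and 80.8 to 92.0% in those with CM.

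**Figure D3:**
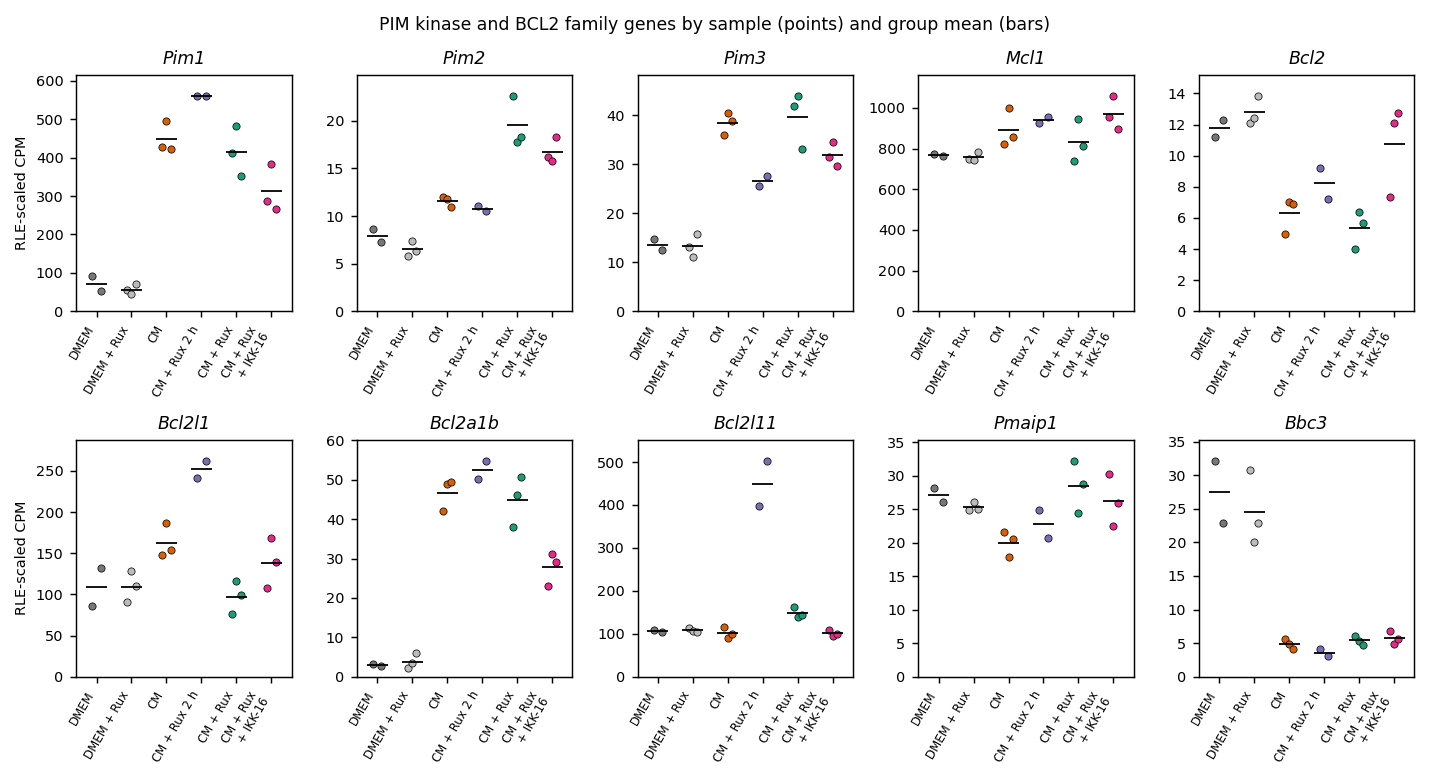
RLE-scaled CPM (vertical axes, from 0) of the 10 genes in each of the 16 samples (points) with the group means (bars), by group (horizontal axes). Samples with and without CM are apart for Pim1, Pim3, Bcl2a1b and Bbc3, the 3 CM + Rux samples of Pim2 are above the 3 CM samples, and the 2 h samples of Bcl2l11 are at 397 and 502 CPM.

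Mcl1 (ENSMUSG00000038612, chr3:95658788-95663176, plus strand), which encodes a short-lived survival protein, was not called in any of the 9 comparisons. Its CPM ranged from 744 to 782 in the 5 samples without CM and from 737 to 1058 in the 11 samples with CM. In CM against DMEM its log2 difference was 0.22 (95% interval -0.02 to 0.45, adjusted p = 0.10), and this turned to -0.10 with scaling by total counts alone. In CM + Rux + IKK-16 against CM + Rux it was 0.22 (95% interval 0.01 to 0.44, adjusted p = 0.15). Its intervals in the 5 comparisons between groups with CM all lay within -0.32 and 0.44.

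Bcl2l1 (ENSMUSG00000007659, chr2:152780668-152831728, minus strand), the gene of the survival protein BCL-XL, was called higher in CM than in DMEM, and its samples in CM + Rux lay below those in CM without passing the threshold. It was at 85.7 and 132 CPM in DMEM and 148, 186 and 154 CPM in CM. In CM + Rux it was at 75.6, 116 and 99.3 CPM, all below the CM samples, and the last pair of values lay between the DMEM samples. With IKK-16 it was at 107, 169 and 139 CPM, and in the 2 h samples at 242 and 262 CPM, above every other sample. The rise in CM against DMEM was 0.58 (SE 0.23, adjusted p = 0.039), but it was 0.27 (0.25) with scaling by total counts alone, 0.47 (0.12) when CM replicate 2 was omitted, 0.62 (0.051) when CM replicate 3 was and 0.30 (0.35) when DMEM replicate 1 was.

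The log2 difference of Bcl2l1 in CM + Rux from CM was -0.75 (SE 0.20, 95% interval -1.18 to -0.31) with an adjusted p of 0.052, just outside the threshold. With the replicate number as a block it was -0.76 with an adjusted p of 4.88e-05, and it also passed with TMM scaling (0.045), total counts alone (0.031), no filter on low counts, DESeq2 (0.0073) and a model of these groups alone (0.0497). In CM + Rux + IKK-16 against CM + Rux the difference was 0.51 (95% interval 0.08 to 0.94, adjusted p = 0.11). It was called in 3 of 15 alternatives, among them total counts alone and the block. The block gave 0.51 with an adjusted p of 6.53e-04. Thus the block raised the number of the 10 genes called from 3 to 4 in each of both comparisons. In DMEM ruxolitinib moved Bcl2l1 by 0.01 (95% interval -0.47 to 0.49). The difference between its ruxolitinib effects in CM and in DMEM was -0.76 (adjusted p = 0.42), and -0.77 with the block (0.0047).

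In the 2 h samples Bcl2l1 was 2.60-fold the level of CM + Rux (log2 fold change 1.38, SE 0.22, adjusted p = 3.15e-04). It was also called higher than in CM (0.63, SE 0.22, adjusted p = 0.033). The latter call was lost without CM replicate 1 (0.56, 0.095), CM replicate 3 (0.59, 0.084) or CM + Rux 2 h replicate 2 (0.68, 0.081) or 3 (0.57, 0.15). Time of the label and ruxolitinib cannot be told apart in a comparison of the 2 h samples with CM.

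Bcl2 (ENSMUSG00000057329, chr1:106538178-106714274, minus strand), the founding survival gene of the family, fell in CM. It was at 11.2 and 12.3 CPM in DMEM and 4.95, 7.04 and 6.88 CPM in CM, 1.85-fold lower (log2 fold change -0.89, SE 0.24, adjusted p = 0.0048). In ruxolitinib the levels were 12.1, 12.4 and 13.8 CPM without CM and 3.99, 6.39 and 5.65 CPM with CM, a log2 fold change of -1.26 (SE 0.22, adjusted p = 1.39e-04). With IKK-16 Bcl2 was at 7.37, 12.1 and 12.7 CPM, all above the CM + Rux samples. It was called higher than in CM + Rux (1.004, SE 0.21, adjusted p = 0.0073) and than in CM (0.76, SE 0.21, adjusted p = 0.021). The difference from CM was lost in a model of only the groups compared (0.77, 0.056), without CM replicate 1 (0.62, 0.082) and without CM + Rux + IKK-16 replicate 2 (0.66, 0.062) or 3 (0.61, 0.089). In the 2 h samples it was at 9.20 and 7.25 CPM, above every CM + Rux sample (0.63, 95% interval 0.12 to 1.15, adjusted p = 0.052). It passed there with TMM scaling, no filter, DESeq2 and without CM + Rux replicate 2 (0.80, 0.031).

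Bcl2a1b (ENSMUSG00000089929, chr9:89199209-89207827, plus strand) encodes a copy of the survival protein A1. It had the largest rise of the 10 genes in CM. It was at 3.31 and 2.62 CPM in DMEM, 2.22, 3.35 and 5.96 CPM in DMEM + Rux and 42.1, 48.9 and 49.4 CPM in CM. The rise was 15.6-fold (log2 fold change 3.97, SE 0.30, adjusted p = 1.27e-07), and 3.52 (SE 0.25) with ruxolitinib in both arms. CM + Rux, at 37.9, 46.3 and 50.6 CPM, overlapped CM and differed from it by -0.06 (95% interval -0.51 to 0.39). Addition of IKK-16 gave 23.0, 31.2 and 29.0 CPM, all below the other samples with CM. Bcl2a1b was called lower there than in CM + Rux (-0.69, SE 0.21, adjusted p = 0.042) and than in CM (-0.76, SE 0.21, adjusted p = 0.020). With the block the former had an adjusted p of 0.0028.

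Single libraries decided both calls. That against CM + Rux was lost without CM + Rux replicate 2 (-0.67, 0.095) or 3 (-0.60, 0.12), without CM + Rux + IKK-16 replicate 1 (-0.57, 0.16) or 3 (-0.73, 0.087), with scaling by total counts alone (-0.61, 0.056) and without the 2 h samples in the model (-0.70, 0.052). That against CM was lost without CM replicate 2 (-0.72, 0.059) or 3 (-0.72, 0.055) and without CM + Rux + IKK-16 replicate 1 (-0.64, 0.091). The direction of Bcl2a1b was the same in each of these fits.

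The other copies of the A1 gene, Bcl2a1a and Bcl2a1d, were also called higher in CM and lower with IKK-16. Bcl2a1a was at 0.655 to 1.63 CPM in DMEM and 52.2 to 63.2 CPM in CM (5.59, adjusted p = 3.6e-09), and Bcl2a1d at 17.6 to 31.9 and 329 to 363 CPM (3.78, adjusted p = 1.3e-08). With IKK-16 they were at 20.7 to 31.5 and 177 to 227 CPM, below CM + Rux (-0.89, adjusted p = 0.0047, and -0.81, adjusted p = 0.0055). In the 2 h samples Bcl2a1a, at 35.4 and 44.8 CPM, was called lower than in CM (-0.52, adjusted p = 0.045). Bcl2a1d (0.39, 95% interval -0.01 to 0.78) and Bcl2a1b (0.16, 95% interval -0.34 to 0.67) were not called. Whether the copies differ from each other there was not tested. Bcl2a1d held 75.7 to 86.6% of the summed counts of the 3 copies and Bcl2a1b 8.69 to 21.9%. The sum was 28.9 ± 11.4 CPM in DMEM (SD, n = 2), 447 ± 24.8 in CM, 450.4 ± 16.4 in CM + Rux and 257 ± 34.0 in CM + Rux + IKK-16 (SD, n = 3 each). Tested as 1 gene, the copies rose by 3.95 in CM, and the change with IKK-16 relative to CM + Rux was -0.81 (adjusted p = 0.0077). The placing of fragments between copies was not tested.

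**Figure D4:**
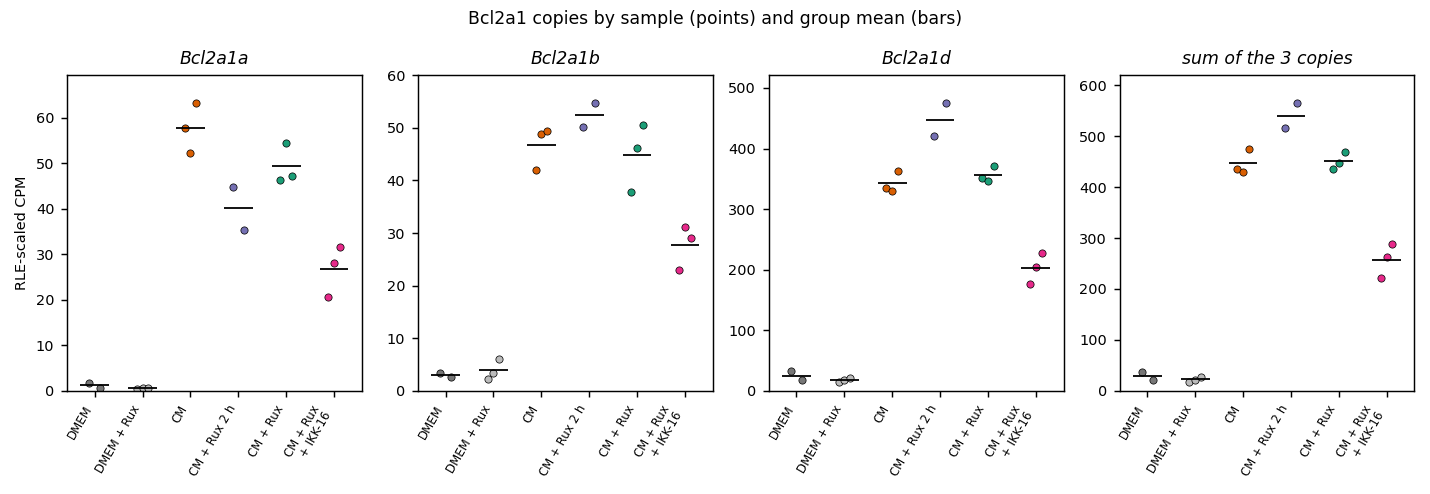
RLE-scaled CPM (vertical axes, from 0) of Bcl2a1a, Bcl2a1b, Bcl2a1d and their sum in each sample (points) with group means (bars), by group (horizontal axes). The sum is at 28.9 CPM in DMEM, 447 in CM, 450.4 in CM + Rux and 257 in CM + Rux + IKK-16, and the 3 IKK-16 samples lie below the other samples with CM in each panel.

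Bcl2l11 (ENSMUSG00000027381, chr2:128126038-128162547, plus strand) encodes BIM, a BH3-only protein that binds all survival members, and was 4.40-fold higher in the 2 h samples than in CM. It was at 108 and 103 CPM in DMEM, 115, 106 and 104 CPM in DMEM + Rux and 116, 90.6 and 99.8 CPM in CM. DMEM and CM overlapped, with a difference of -0.05 (95% interval -0.30 to 0.20). In CM + Rux it was at 163, 139 and 143 CPM, above every sample of the groups named so far. It was called higher than in CM (0.54, SE 0.10, adjusted p = 0.0078). This was under the fold threshold without CM replicate 2 (0.46) or CM + Rux replicate 1 (0.47), and a model of only the 2 groups gave an adjusted p of 0.052.

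With IKK-16 added, Bcl2l11 was at 109, 95.2 and 99.7 CPM, which lay in the range of CM. It was called lower than in CM + Rux (-0.55, SE 0.10, adjusted p = 0.0038). This was under the fold threshold with scaling by total counts alone (-0.46) and without CM + Rux replicate 1 (-0.48). Its difference from CM was -0.01 (95% interval -0.23 to 0.21), with a sign that changed with the scaling. The same 3 CM + Rux samples enter both calls. In the 2 h samples Bcl2l11 reached 397 and 502 CPM, with no overlap with any other group. The log2 fold change was 2.14 against CM (SE 0.12, adjusted p = 3.82e-08) and 1.599 against CM + Rux (SE 0.11, adjusted p = 5.13e-07). The ruxolitinib effect on Bcl2l11 was 0.03 in DMEM (95% interval -0.22 to 0.28), and its difference from that in CM was 0.51 (adjusted p = 0.21, and 0.015 with the block).

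**Figure D5:**
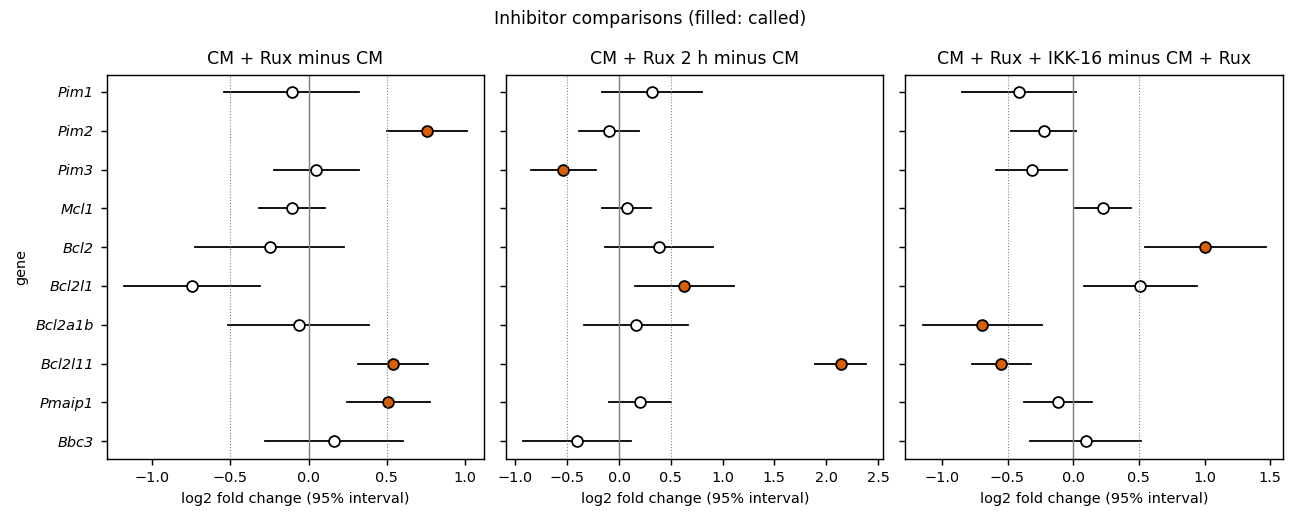
The log2 fold changes (points, filled where called) and their 95% intervals (lines) on the horizontal axes for the 10 genes (vertical axis) in CM + Rux minus CM, CM + Rux 2 h minus CM and CM + Rux + IKK-16 minus CM + Rux, with dotted lines at 0.5 in both directions. Bcl2l11 is at 0.54, 2.14 and -0.55, and the intervals of Mcl1 stay within -0.32 and 0.44.

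Pmaip1 (ENSMUSG00000024521) encodes NOXA, a BH3-only protein that binds mainly MCL1 and A1. It was at 28.2 and 26.2 CPM in DMEM and 21.5, 17.9 and 20.6 CPM in CM. These did not overlap, but the log2 difference of -0.45 (SE 0.14, adjusted p = 0.011) was under the fold threshold, and it was -0.75 with scaling by total counts alone. In CM + Rux Pmaip1 was at 32.2, 24.4 and 28.8 CPM, above the CM samples, and was called higher (0.51, SE 0.12, adjusted p = 0.030). The call was lost with total counts alone (0.54, 0.053), in a model of only both groups (0.51, 0.096), without CM replicate 2 (0.43, 0.14) or 3 (0.53, 0.063) or when CM + Rux replicate 1 (0.41, 0.15) or 3 (0.50, 0.085) was omitted. With IKK-16 it was at 30.3, 22.5 and 25.9 CPM, with a difference from CM + Rux of -0.11 (95% interval -0.37 to 0.14). These samples lay above those of CM, by 0.40 (95% interval 0.13 to 0.66, edgeR adjusted p = 0.032), under the fold threshold. In DMEM + Rux it was at 24.8, 26.0 and 25.1 CPM, just below both DMEM samples, with a difference of -0.10 (95% interval -0.39 to 0.19). The difference between the ruxolitinib effects was 0.61 (adjusted p = 0.19), and 0.58 with the block (0.049). With the block, then, Pim2, Bcl2l1, Bcl2l11 and Pmaip1 were called in this test, 4 of the 10 genes in place of 1, while the number of all genes called rose from 51 to 444.

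Bbc3 (ENSMUSG00000002083, chr7:16308393-16318205, plus strand) encodes PUMA, a BH3-only protein known as a p53 target, and had the largest fall of the 10 genes in CM. It was at 32.1 and 23.0 CPM in DMEM, 30.8, 20.1 and 22.8 CPM in DMEM + Rux and 5.62, 4.87 and 4.15 CPM in CM. Every sample with CM, at 3.04 to 6.83 CPM, was below every sample without it. The fall was 5.67-fold (log2 fold change -2.50, SE 0.21, adjusted p = 3.6e-07), and 4.499-fold with ruxolitinib in both arms (-2.17, SE 0.20). Within CM it was at 6.07, 5.38 and 4.78 CPM with ruxolitinib and 6.83, 4.92 and 5.65 CPM with both inhibitors. It was not called there, with differences of 0.16 (95% interval -0.28 to 0.60) for CM + Rux against CM and 0.09 (95% interval -0.33 to 0.52) for CM + Rux + IKK-16 against CM + Rux. Of the summed RPKM of the 3 pro-death genes, Bcl2l11 held 34.6 to 40.9% without CM, 48.7 to 60.1% in CM, CM + Rux and CM + Rux + IKK-16 and 81.7 to 87.4% in the 2 h samples.

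Other genes of the family were described from lists of names, by their counts. Of 7 other BH3-only genes 6 were tested, and 2 were called higher and 1 lower in CM against DMEM (20.9% and 24.1% of all genes). Bmf, whose protein acts in loss of cell attachment, was at 24.2 to 32.5 CPM in DMEM and 0.891 to 1.001 CPM in CM (-4.94, adjusted p = 3.1e-08), and reached 3.21 and 3.87 CPM in the 2 h samples (1.95 against CM, adjusted p = 5.9e-04). Bnip3, a mitophagy gene induced by low oxygen, went from 13.0 to 15.7 CPM in DMEM to 88.0 to 124 CPM in CM (2.84, adjusted p = 6.5e-08), and it was at 14.8 and 15.1 CPM in the 2 h samples. Bad was called higher in CM (0.52, adjusted p = 4.1e-04). When IKK-16 was added to CM + Rux, Bik, at 0.408 to 0.948 CPM, and Bnip3 were called lower (-1.08, adjusted p = 0.038, and -0.62, adjusted p = 0.017), as were 3.66% of all genes. Hrk was at most 0.0556 CPM and was not tested.

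Of the 3 pore-forming genes Bax and Bak1 were tested, and Bak1 was called higher in CM against DMEM (0.60, adjusted p = 9.8e-06), as were 20.9% of all genes. Bax, at 97.2 to 103 CPM in DMEM and 80.0 to 88.0 CPM in CM, differed by -0.25 (adjusted p = 0.0018), under the fold threshold. Bok, the other one, was at most 0.175 CPM. The survival gene Bcl2l2 was called higher in CM against DMEM (0.77, adjusted p = 6.75e-06), at 48.5 to 54.7 CPM beside 28.0 to 32.4 CPM, and the germline gene Bcl2l10 was at 0 in all samples. The median log2 fold change of the 10 genes in CM against DMEM was 0.38, beside a median of -0.0050 over all genes tested. The 10 genes mix survival and pro-death genes and were chosen with earlier results of these data known. These medians are therefore a description and not a test.

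Likeness to other genes was measured by Pearson's r of log2 CPM over the 16 samples, which share the large difference between samples with and without CM. The nearest genes were Nod2 (0.995) and Pde4b (0.995) for Pim1, Treml4 (0.968) and Adgrl2 (0.955) for Pim2, and Mthfd2l (0.988) and Txn1 (0.986) for Pim3. For Bcl2a1b they were Pvr (0.992) and Dnajb6 (0.987), for Bcl2 Myo7a (0.949) and Tmem206 (0.938), and for Bcl2l1 Smad3 (0.916) and Adgre5 (0.895). Mcl1 was nearest to Lasp1 (0.927) and Mindy1 (0.908). Bcl2l11 was nearest to Vezf1 (0.984) and Dyrk2 (0.969), Pmaip1 to St18 (0.880) and Me1 (0.860), and Bbc3 to Pik3c3 (0.980) and Strada (0.978). Among the 10 genes the highest value was 0.978 for Pim1 and Bcl2a1b and the lowest -0.976 for Bcl2a1b and Bbc3.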

How the data were processed

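Paired reads of stranded mRNA libraries were trimmed by the authors with Trimmomatic 0.33, aligned to GRCm38 with HISAT2 2.1.0 and counted per gene with featureCounts 1.6.2. The deposited counts are whole numbers without scaling. Per the file header the counting was reverse-stranded, with a minimum mapping quality of 10 and without the options that count fragments of several places or genes, which lowers genes with near-identical copies. Symbols came from GENCODE M21 for 55141 of 55487 identifiers, since the annotation the authors used is not used here.

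RLE scaling, the filter above 1 CPM in at least 2 samples and the thresholds follow the study's methods. Tests were done with the quasi-likelihood test of edgeR 4.0.16 in R 4.3.3, with 6 groups, no covariate and 95% intervals. The study's section on statistics names a t test for RNA-seq, which was not used here. Over 16 samples of 18449388 to 46215853 counts, replicates differed beyond counting noise (chi-square over its degrees of freedom 13.2 to 50.3), so none were copies. The labels do not state separate animals or cultures, so p-values measure the spread between these samples, which may be technical. RLE moved the median log2 fold change, relative to total counts alone, by 0.31 in CM against DMEM, 0.30 in CM + Rux against DMEM + Rux and -0.11 in CM + Rux + IKK-16 against CM, and by less elsewhere.

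The labels number the replicates. Of 35 pairs of samples with the same number, 34 had deviations from the group means that correlated above 0.1 (median 0.32). The other pair, DMEM and CM + Rux 2 h, enters no comparison. The median for different numbers was -0.12, but deviations within a group cancel, so both medians are tied. The pairs share samples and are not independent. The numbers were therefore taken to pair samples where a comparison has at least 3 pairs, from the data and not from a stated design. The main tests did not use this pairing, and the replicate block entered as an alternative.

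The 10 genes and all lists were chosen with earlier results of these data known. All 10 are named. Of other lists, family members and response genes may be named, and otherwise at most the called gene with the largest change in each direction, besides the 2 genes with the highest r for each of the 10. Alternatives were TMM scaling, total counts alone, no filter, filterByExpr, the replicate block, DESeq2 1.42.0, a model of only the groups compared, no fold threshold and each sample left out. Omission of the 2 h samples and the sum of the Bcl2a1 copies were added after seeing the data. Scripts were tested on simulated data. Intervals cover the model's spread only. Python 3.11.15 with pandas 2.3.3 and matplotlib 3.10.9 drew the figures.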

Additional observations from a re-analysis of the deposited data

Results flagged for a closer look

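The test was whether ruxolitinib acted differently in CM and in DMEM. Outside the marker lists, 3 genes of the lists were called, 1 of them among the 10 genes, where 0.412% of all genes were called. Of the 6 macrophage markers 1 was called lower in this test. The difference of the effects (CM minus DMEM, log2) was 1.04 for Pim2, with effects of 0.76 and -0.28. For Map3k5, which encodes the stress kinase ASK1, a PIM substrate, it was 1.01 (edgeR adjusted p = 0.030). Its samples were at 23.1 to 30.3 CPM in CM, 46.1 to 49.5 in CM + Rux, 23.3 to 24.4 in DMEM and 19.0 to 22.7 in DMEM + Rux. For Socs1, a feedback inhibitor of JAK signaling, it was 1.499 (edgeR adjusted p = 0.030). Its effects were -0.26 in CM and -1.76 in DMEM, where its level was at most 0.941 CPM. Groups hold 2 or 3 samples, so no group was searched for samples far from the others.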

How the results depend on the processing

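Of 1349 values of single genes of the 10 under the alternatives, 1245 kept their direction and their side of the threshold, 47 lost a call, 29 gained one and 28 changed sign. None of the 28 was a call. For the number of the 10 genes called, with single samples left out, CM + Rux against CM gave 1 to 4, CM + Rux + IKK-16 against CM 1 to 3 and CM + Rux 2 h against CM 1 to 2, so that each omission lost at least 1 of its 3 calls. The difference between ruxolitinib effects gave 0 to 1 with such omissions, 0 in a model of the 4 groups alone and 4 with the replicate block. In comparisons with 2 pairs, where numbers were not taken to pair samples, the block changed 1 call of the 10 genes, Bcl2 in CM + Rux 2 h against CM + Rux (0.52, adjusted p = 0.021 in edgeR); in the others it changed those given with the results alone.

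With total counts alone, signs turned for Mcl1 (-0.097 in CM against DMEM and -0.17 in CM + Rux against DMEM + Rux) and for Pmaip1 (-0.13 in the latter). Bcl2l11 in CM + Rux + IKK-16 against CM was 0.096 with total counts alone, 0.0013 with TMM and 0.0012 with only both groups. With copies summed, Bcl2a1b was 0.010 in CM + Rux against CM, -0.38 in DMEM + Rux against DMEM and 0.39 in the difference of effects. Bbc3 in CM + Rux 2 h against CM + Rux was called with no filter on low counts (-0.57). With single samples left out, these values changed sign. In CM against DMEM, Bcl2l11 ranged from -0.15 to 0.0292. In CM + Rux against CM, Bcl2a1b ranged from -0.15 to 0.0498 and Pim3 -0.0294 to 0.16. In CM + Rux + IKK-16, Bbc3 ranged from -0.0407 to 0.20 against CM + Rux and Bcl2l11 -0.0902 to 0.0881 against CM. In DMEM + Rux against DMEM, Pim1 ranged from -0.69 to 0.11, Pim3 -0.18 to 0.0886, Bcl2l1 -0.27 to 0.36, Bbc3 -0.39 to 0.0924, Bcl2l11 -0.0134 to 0.0597 and Bcl2a1b -0.0555 to 0.61. In the difference of effects, Mcl1 ranged from -0.19 to 0.00458, Pim1 -0.22 to 0.58 and Pim3 -0.0419 to 0.23. The cause was not tested. Over all genes tested, the block raised the number called in CM + Rux against CM from 412 to 745. Groups of 2 samples limit each comparison with DMEM or the 2 h samples.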

Other observations

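Lists around the 10 genes were counted in the same tests, with genes named by the same rule. Of 15 genes of the caspase pathway, all tested, CM against DMEM gave 7 higher and 2 lower calls, with a median log2 fold change of 0.35 (45.0% of all genes called). Cflar, which encodes the caspase-8 inhibitor c-FLIP, had the largest rise (1.97, edgeR adjusted p = 6.1e-09) and Htra2, a mitochondrial protease that counters caspase inhibitors, the largest fall (-1.62, 1.9e-09). Of 14 p53 target genes, 13 passed the filter, with 3 higher and 6 lower calls for CM against DMEM (20.9% and 24.1% of all genes). Cdkn1a, the cell cycle inhibitor p21, rose most (1.96, 2e-06), and Trp53inp1 fell most (-2.45, 1.2e-06).

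Of 11 genes of PIM substrates, 6 were called higher and 1 lower in CM against DMEM (20.9% and 24.1% of all genes), and 1, Map3k5 (0.86, edgeR adjusted p = 9.2e-04), higher in CM + Rux than in CM (1.20% of all genes). In the 2 h samples against CM 2 of the 11 were called higher and 3 lower, where 14.6% of all genes were called higher and 13.3% lower. Map3k5 was 2.26 higher in the 2 h samples than in CM, at 116 and 136 CPM (7.2e-08). Of 6 transcription factor genes known to act on BH3-only genes, 1 was called higher and 2 lower in the 2 h samples than in CM. Foxo1 was called higher in the 2 h samples than in CM (1.38, 5.7e-07; 54.0 and 58.9 CPM against 19.1 to 24.5), and Foxo3 lower (-1.71, 2.7e-07; 22.4 and 32.6 CPM against 87.5 to 93.2). Of 4 genes of MCL1 protein turnover, 1, Btrc, was called lower in the 2 h samples than in CM (-1.19, 1.5e-04).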
